A study of Mus musculus with 8 samples.

Results

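The 10 receptor genes described here were followed in 2 mouse T cell leukemia lines, by the symbols that the array's annotation gives: the cytokine receptor chains Il7r, Il2ra, Il2rb, Il2rg, Il4ra, Il21r and Il6ra, and the receptor tyrosine kinases Kit, Flt3 and Igf1r. Of these 10 genes, 9 were measured, at 20 of 45037 probe sets and among 18193 genes with a probe set of their own. No probe set carried the symbol Il2rg, which was not analysed here. Each level is an RMA intensity on a linear scale, and each difference is a difference of log2 intensities.

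Both lines came from thymic leukemias of FVB/NJ E2a-/- mice, so that all 4 groups are without E2a, which encodes the E proteins E12 and E47. In the Lef1F/F line both Lef1 alleles also carry loxP sites and can be deleted by Cre, and in the E2a-/- line Lef1 is unmodified. Each line was infected with MigR1-Cre, a retrovirus that carries the recombinase Cre and GFP, or with MigR1, which carries GFP alone, and GFP+ cells were collected 72 h later, with 2 arrays for each of the 4 groups (Lef1F/F MigR1-Cre, Lef1F/F MigR1, E2a-/- MigR1-Cre and E2a-/- MigR1). Each genotype is represented by 1 cultured line, and the line and its genotype cannot be told apart. The labels name no separate cultures for the 2 arrays of a group, and the p-values therefore measure no more than the spread between these arrays, which may be technical. The vector was taken from the sample titles and source names, since a further label field gives the other vector for the E2a-/- MigR1-Cre and Lef1F/F MigR1 arrays.

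Lef1 served as a check of the titles. Its brighter probe set had 1903 and 1678 in the Lef1F/F MigR1-Cre arrays and 6918 and 6126 in the Lef1F/F MigR1 arrays, against 3008 to 3416 in the 4 arrays of the E2a-/- line. Array medians lay between 88.9 and 91.0. Of 12 measured T cell markers, 10 exceeded 2 times the array median in all 8 arrays, Cd3d, Cd3e, Cd3g and Bcl11b among them. None of 7 B cell, 10 myeloid or 6 mast cell and progenitor markers did so in any array.

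Cytokine receptors of this class have no enzyme of their own. Binding of the ligand brings receptor chains together, Janus kinases bound to their tails phosphorylate them, and STAT proteins then carry the signal to the nucleus, where suppressors of cytokine signalling are among the genes induced and feed back on the receptor. Il7r encodes the alpha chain of the IL-7 receptor, which pairs with the common gamma chain for IL-7 and with the product of Crlf2 for TSLP, and IL-7 supports survival of early thymocytes. Il2ra, the high affinity chain of the IL-2 receptor, is a stage marker of CD4- CD8- thymocytes. Kit binds stem cell factor, Flt3 binds FLT3 ligand, and Igf1r binds the insulin-like growth factors, and each is a tyrosine kinase that acts through Ras and PI3 kinase.

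Il7r, Kit, Igf1r and Il2ra, 4 of the 9 measured genes, passed the test between the lines in MigR1 arrays described below, as did 14.6% of all genes. In MigR1-Cre arrays Il2ra did not pass. The promoter sequences of these 4 genes are given with the short motifs that LEF1 and the E proteins bind. Both lines are without E2a, and a part of LEF1 or of other E proteins in the differences between the lines was not tested. The sequences are from RefSeq on assembly GRCm38.p6, cover up to 250 bases before the annotated start on the strand of the gene, and have in capitals each TCF/LEF core (CTTTGA, or TCAAAG on the opposite strand) and each E box (CANNTG, which reads alike on both strands). The Il7r sequence is shorter, because the bases of its window that lie within the annotated gene are left out.
Il7r, chr15:9529942-9530126, minus strand: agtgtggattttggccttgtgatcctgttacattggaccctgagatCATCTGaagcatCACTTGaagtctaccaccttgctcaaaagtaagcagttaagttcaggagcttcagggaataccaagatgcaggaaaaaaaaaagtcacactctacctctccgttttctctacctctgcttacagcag
Il2ra, chr2:11642542-11642791, plus strand: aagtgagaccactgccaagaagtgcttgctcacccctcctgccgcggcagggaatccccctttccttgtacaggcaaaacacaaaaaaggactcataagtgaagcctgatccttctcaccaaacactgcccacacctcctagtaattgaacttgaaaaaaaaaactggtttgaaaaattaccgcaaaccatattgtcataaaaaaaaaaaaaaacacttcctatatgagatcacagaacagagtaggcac
Kit, chr5:75574737-75574986, plus strand: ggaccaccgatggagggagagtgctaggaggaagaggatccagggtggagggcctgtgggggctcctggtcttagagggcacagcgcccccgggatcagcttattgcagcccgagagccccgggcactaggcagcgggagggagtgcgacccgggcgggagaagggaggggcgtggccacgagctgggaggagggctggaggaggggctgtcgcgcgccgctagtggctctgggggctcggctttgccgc
Igf1r, chr7:67952007-67952256, plus strand: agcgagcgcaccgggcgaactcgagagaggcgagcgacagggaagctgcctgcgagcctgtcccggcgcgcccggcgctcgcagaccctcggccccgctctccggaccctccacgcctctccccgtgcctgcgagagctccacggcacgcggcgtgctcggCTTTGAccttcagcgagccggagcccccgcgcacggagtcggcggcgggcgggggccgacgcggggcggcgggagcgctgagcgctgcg

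Of the 10 receptor genes, 9 had a promoter in the table, all but Il2rb. A TCF/LEF core was found in 2 of them, Igf1r at 89 bases before the start and Flt3 at 179 bases before it, where 14% of 27025 mouse promoter windows of 250 bases hold such a core. An E box was found in 5, against 66% of all windows. Il7r had 3 E boxes in its window, at 204, 192 and 34 bases before the start, of which the first 2 are in the printed stretch, while the windows of Il2ra, Kit and Igf1r had none. The match is of letters only, and no binding was measured.

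The first comparison asked how receptor levels differed between the lines without Cre. With limma, 4 of 9 genes passed an adjusted p of 0.05 at their brightest probe set (44.4%), where 14.6% of all genes passed. Igf1r and Il2ra were higher in the Lef1F/F line, as were 8.71% of all genes, and Il7r and Kit were lower, as were 5.88% of all genes. Of the 20 probe sets 7 passed, against 10.7% of all probe sets. The arrays infected with MigR1-Cre gave 3 of 9 genes, where 16.1% of all genes passed, with Igf1r higher (8.6% of all genes) and Il7r and Kit lower (7.46% of all genes). There, 5 of 20 probe sets passed, against 12% of all. The median difference of the 9 genes was -0.07 in the MigR1 arrays, against -0.0050 over all genes.

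**Figure D1:**
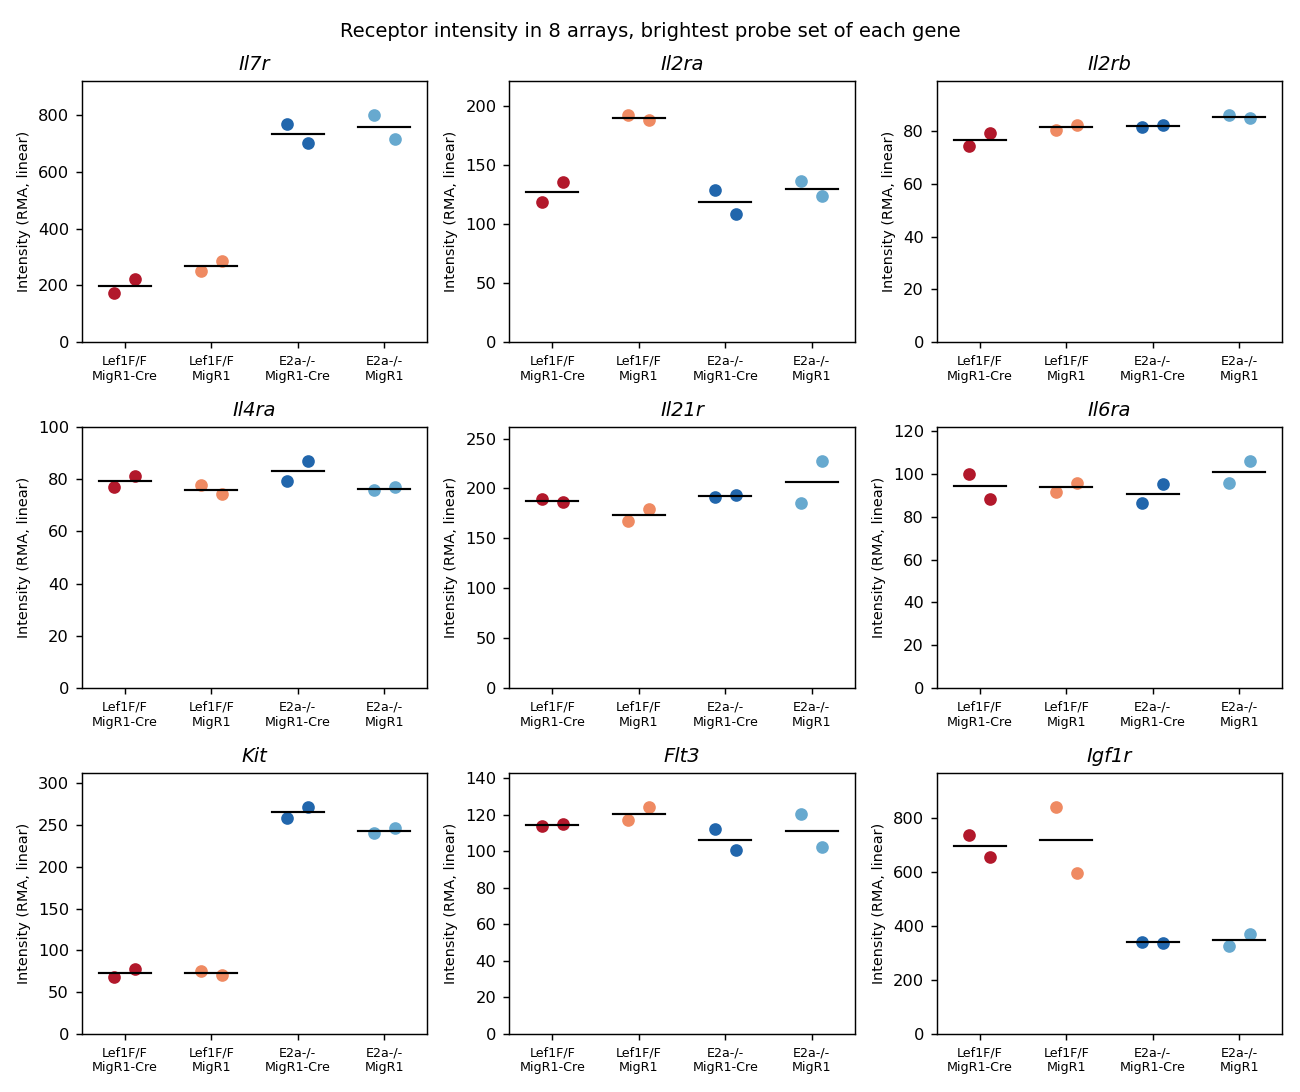
Intensity (linear RMA units, vertical axes from 0) of 9 receptor genes at their brightest probe set in the 4 groups; points are single arrays and bars are means of the 2 arrays of a group. Il7r and Kit are lower and Igf1r is higher in all 4 arrays of the Lef1F/F line than in any array of the E2a-/- line, and Il2ra stands highest in the 2 Lef1F/F MigR1 arrays, at 192 and 188.

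Il7r was lower in the Lef1F/F line. Its brighter probe set had 172 and 224 in the Lef1F/F MigR1-Cre arrays and 249 and 285 in the Lef1F/F MigR1 arrays, against 770 and 700 in the E2a-/- MigR1-Cre arrays and 801 and 718 in the E2a-/- MigR1 arrays. The 4 Lef1F/F arrays were all below the 4 E2a-/- arrays, with no overlap. The log2 difference was -1.90 ± 0.13 (SE) in MigR1-Cre arrays, which is 3.74-fold lower, with limma adjusted p = 6.09e-05, and -1.51 ± 0.13 in MigR1 arrays, which is 2.85-fold lower, with adjusted p = 0.00020. The dimmer probe set had 102, 98.7, 97.0 and 143 in the Lef1F/F line, against 318, 295, 283 and 316 in the E2a-/- line, and was lower by the same test (-1.61 ± 0.16 in MigR1-Cre arrays and -1.35 ± 0.16, adjusted p = 0.00099, in MigR1 arrays). In the Lef1F/F line it stood at 97.0 to 143, under 2 times the array median (178 to 182), where RMA compresses differences.

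Kit stood lower as well. The probe set with signal had 68.5 and 77.5 in the Lef1F/F MigR1-Cre arrays and 75.3 and 69.8 in the Lef1F/F MigR1 arrays, all below the array median, against 258 and 272 in the E2a-/- MigR1-Cre arrays and 240 and 246 in the E2a-/- MigR1 arrays. The Kit difference was -1.86 ± 0.08 in MigR1-Cre arrays and -1.75 ± 0.08 in MigR1 arrays (limma adjusted p = 3.61e-06 and 4.81e-06). Below the array median, where the Lef1F/F arrays lie, the signal cannot be told from background, so the direction is measured and the size depends on that background. Kit is also a marker of mast cells and blood progenitors, and the intensities of 6 such markers, Cpa3 and Cd34 among them, summed to 389 to 412 in the 4 Lef1F/F arrays and to 395 to 413 in the 4 E2a-/- arrays. None of these 6 exceeded 2 times the array median in any array, so the sums are at background and cannot compare such cells between the lines. The other Kit probe set was below the array median in every array, with a mean of 60.7 in Lef1F/F MigR1 arrays and 72.3 in E2a-/- MigR1 arrays, and did not pass (-0.25 ± 0.07, adjusted p = 0.0614).

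Igf1r ran the other way. Its brightest probe set had 737 and 658 in the Lef1F/F MigR1-Cre arrays and 843 and 598 in the Lef1F/F MigR1 arrays, against 342 and 337 in the E2a-/- MigR1-Cre arrays and 326 and 371 in the E2a-/- MigR1 arrays. The lowest Lef1F/F array was still above the highest E2a-/- array, and the difference was 1.04 ± 0.15, or 2.05-fold, in MigR1-Cre arrays (adjusted p = 0.00303) and 1.03 ± 0.15 in MigR1 arrays (adjusted p = 0.00321). The next probe set gave 1.13 ± 0.14 in MigR1-Cre arrays and 1.19 ± 0.14 in MigR1 arrays. The third did not pass in MigR1-Cre arrays (0.54 ± 0.17, adjusted p = 0.0788) and passed in MigR1 arrays (0.75 ± 0.17, adjusted p = 0.0247), and the 2 dim ones were not called. All 5 probe sets lay higher in every Lef1F/F array of a vector than in the E2a-/- arrays of that vector. In each comparison of the lines, 6 of the 20 receptor probe sets were higher and 6 lower without overlap. Uncalled probe sets of Il2rb, Il21r and Kit were among these. How many of all probe sets separate in this way was not counted, so the separation does not show a difference at the 2 dim Igf1r probe sets. The dimmest of the 5 had 87.1 and 80.7 against 78.5 and 78.5 in MigR1 arrays, all below the array median. In both Lef1F/F groups the array numbered 1 was brighter than the array numbered 2 at all 5 Igf1r probe sets.

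Il2ra differed between the lines only among the MigR1 arrays by this threshold. Its brighter probe set had 118 and 135 in the Lef1F/F MigR1-Cre arrays and 192 and 188 in the Lef1F/F MigR1 arrays, against 128 and 109 in the E2a-/- MigR1-Cre arrays and 136 and 123 in the E2a-/- MigR1 arrays. The 2 Lef1F/F MigR1 arrays were the highest of all 8, and the other 3 groups overlapped. These were also the only 2 arrays above 2 times the array median at this probe set, so the size of every Il2ra difference rests on dim signal in the other groups. The line difference was 0.10 ± 0.10 in MigR1-Cre arrays (adjusted p = 0.657) and 0.55 ± 0.10 in MigR1 arrays (adjusted p = 0.0101), and the difference between these values, tested as such, was -0.45 ± 0.14 and did not pass (adjusted p = 1.0). Without the E2a-/- MigR1 replicate 2 the value in MigR1 arrays was 0.48, with adjusted p = 0.1, and the call was lost. The other Il2ra probe set lay near the array median, with group means of 85.5 to 89.6, and gave 0.04 ± 0.08.

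The remaining 5 measured receptors did not pass between the lines. Il21r, whose product pairs with the common gamma chain to bind IL-21, had 189 and 187 in Lef1F/F MigR1-Cre arrays and 167 and 179 in Lef1F/F MigR1 arrays, against 192 and 193 in E2a-/- MigR1-Cre arrays and 185 and 228 in E2a-/- MigR1 arrays. The Il21r difference in MigR1 arrays was -0.24 ± 0.10 (adjusted p = 0.175), and without the E2a-/- MigR1 replicate 1 it was -0.39 with adjusted p = 0.0405. Flt3 stood at 114 to 124 in the Lef1F/F line and at 100.4 to 120 in the E2a-/- line. Il2rb (2 probe sets), Il4ra (3) and Il6ra (2), the beta chain for IL-2 and IL-15, the alpha chain for IL-4 and IL-13, and the alpha chain for IL-6, lay under 2 times the array median in all 8 arrays at every probe set. The brightest Il2rb probe set had 74.2 to 82.3 in the 4 Lef1F/F arrays and 81.4 to 86.0 in the 4 E2a-/- arrays, that of Il4ra 74.1 to 81.3 and 75.8 to 87.0, and that of Il6ra 88.5 to 100.2 and 86.6 to 106, so that the lines overlapped at each over both vectors together. Within each vector, the Lef1F/F arrays of this Il2rb probe set lay below the E2a-/- arrays. Its uncalled differences were -0.10 in MigR1-Cre arrays and -0.07 in MigR1 arrays, at levels below the array median. Over the 8 probe sets of these 3 genes and Flt3, differences between the lines ran from -0.10 to 0.12, and their 95% intervals reached from -0.31 to 0.33, at signals so low that RMA compresses a difference.

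**Figure D2:**
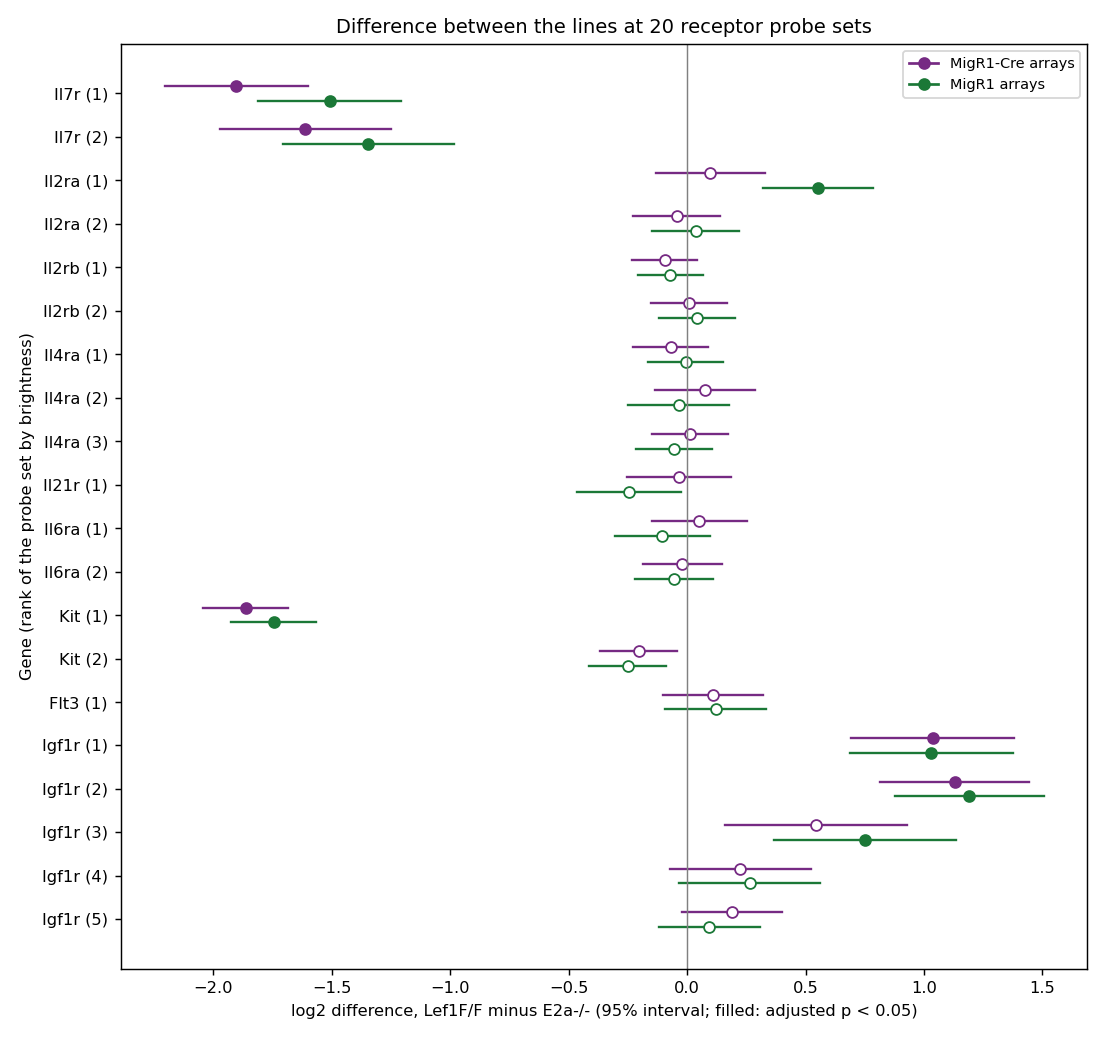
Difference in log2 intensity, Lef1F/F minus E2a-/-, with its 95% interval at each of 20 receptor probe sets (rows; the number in brackets ranks the probe sets of a gene by brightness), in MigR1-Cre arrays (purple) and MigR1 arrays (green). Filled points passed an adjusted p of 0.05: Il7r and Kit lie left of 0 at -1.35 to -1.90, Igf1r lies to the right at up to 1.19, and Il2ra is filled in MigR1 arrays alone, at 0.55.

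In bulk RNA, fewer cells of a type and less RNA per cell cannot be told apart. Of 12 measured T cell markers, Cd3e, Cd3g, Cd2, Bcl11b and Cd28 were called higher in Lef1F/F than in E2a-/- MigR1 arrays and 0 lower. In MigR1-Cre arrays 4 were higher and 0 lower. Of all genes 8.71% and 8.6% were higher in these 2 comparisons. Marker lists of other cells also differed between the lines at single genes. Among 8 stromal and endothelial markers, Col1a2, a collagen chain, had means of 279 and 302 in the Lef1F/F MigR1-Cre and MigR1 arrays, against 4327 and 4160 in the E2a-/- MigR1-Cre and MigR1 arrays. That list summed to 991 to 1130 in Lef1F/F arrays and to 4837 to 5078 in E2a-/- arrays, and most of the E2a-/- sum was Col1a2. In MigR1 arrays Col1a2 was called lower and Pdgfrb higher in the Lef1F/F line, 6 did not pass, and the median difference was 0.0076. Only Col1a2 and Pecam1 exceeded 2 times the array median in all 8 arrays. Of 6 natural killer and innate lymphoid cell markers only Id2 did so, and the list summed to 960 to 1120 in Lef1F/F arrays and to 1299 to 1633 in E2a-/- arrays. Id2 was also the only marker of that list called between the lines, lower in the Lef1F/F line, and 5 did not pass. The part of these markers in the receptor differences was not tested.

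The main comparison asked how the receptors differed after Cre in the line whose Lef1 can be deleted. None of 9 genes and 0 of 20 probe sets passed with limma in the Lef1F/F line, where 0.286% of all genes and 0.167% of all probe sets passed. An unadjusted p under 0.05 was found at 2 of 20 probe sets there, beside 2100 of all 45037. In the E2a-/- line 0 of 20 passed, as did 0% of all probe sets. There, 0 of 20 had an unadjusted p under 0.05, beside 836 of all 45037. For the difference of the 2 Cre effects, 0 of 20 passed, against 0.02% of all probe sets and 0.033% of all genes. At an unadjusted p under 0.05 there was 1 of 20, beside 1453 of all 45037 probe sets.

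The 2 probe sets with a small unadjusted p in the Lef1F/F line were the brighter ones of Il2ra and Il7r, both with lower values after Cre. Il2ra had 118 and 135 after MigR1-Cre, against 192 and 188 after MigR1, without overlap, a difference of -0.59 ± 0.10 (limma adjusted p = 0.140). In the E2a-/- line it had 128 and 109 after MigR1-Cre, against 136 and 123 after MigR1, which overlap (-0.13 ± 0.10). Il7r had 172 and 224 after MigR1-Cre, against 249 and 285 after MigR1, in the Lef1F/F line, again without overlap, a difference of -0.44 ± 0.13 (limma adjusted p = 0.694). In the E2a-/- line the Il7r difference was -0.05 ± 0.13, and the difference of the Cre effects was -0.40 ± 0.19 (adjusted p = 1.0).

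Both values depended on how the 4 Lef1F/F arrays were treated. Across probe sets, the arrays numbered 1 of each vector correlated at r = 0.9975, as did the arrays numbered 2, above the 0.9943 and 0.9945 between arrays of the same vector. These pairs come from the data and not from the labels. With the pairs as a block, Il2ra and Il7r were called lower after Cre, with the same differences and limma adjusted p of 0.00884 and 0.0247, and the difference of the Cre effects still did not pass for either (adjusted p = 0.425 and 0.437). That block raised the calls after Cre in the Lef1F/F line from 75 to 345 of all 45037 probe sets. The dimmer probe sets of Il2ra and Il7r gave -0.07 ± 0.08 and -0.23 ± 0.16 without the block. Without the Lef1F/F MigR1-Cre replicate 1 the Il7r difference was -0.25, and without the Lef1F/F MigR1-Cre replicate 2 it was -0.63, neither of them called.

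Kit and Igf1r, which also differed between the lines, were not called after Cre. In the Lef1F/F line both Kit groups lay below the array median, so a lower Kit level after Cre could not have been seen there; the measured difference was 0.01. In the E2a-/- line, where Kit had signal, it was 0.13, with a 95% interval from -0.05 to 0.30. For Igf1r the values were -0.03, with an interval from -0.37 to 0.32, and -0.03, with an interval from -0.38 to 0.31, in the Lef1F/F and E2a-/- lines. The Lef1F/F value of Igf1r was 0.22 without the Lef1F/F MigR1 replicate 1 and -0.28 without the Lef1F/F MigR1 replicate 2, so its sign rested on a single array. Il21r gave 0.12 ± 0.10 and -0.09 ± 0.10 in the Lef1F/F and E2a-/- lines. At the 8 probe sets of Il2rb, Il4ra, Il6ra and Flt3, the values ran from -0.09 to 0.10 in the Lef1F/F line, with 95% intervals that reached from -0.29 to 0.31, and from -0.15 to 0.13 in the E2a-/- line, with intervals from -0.35 to 0.29.

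**Figure D3:**
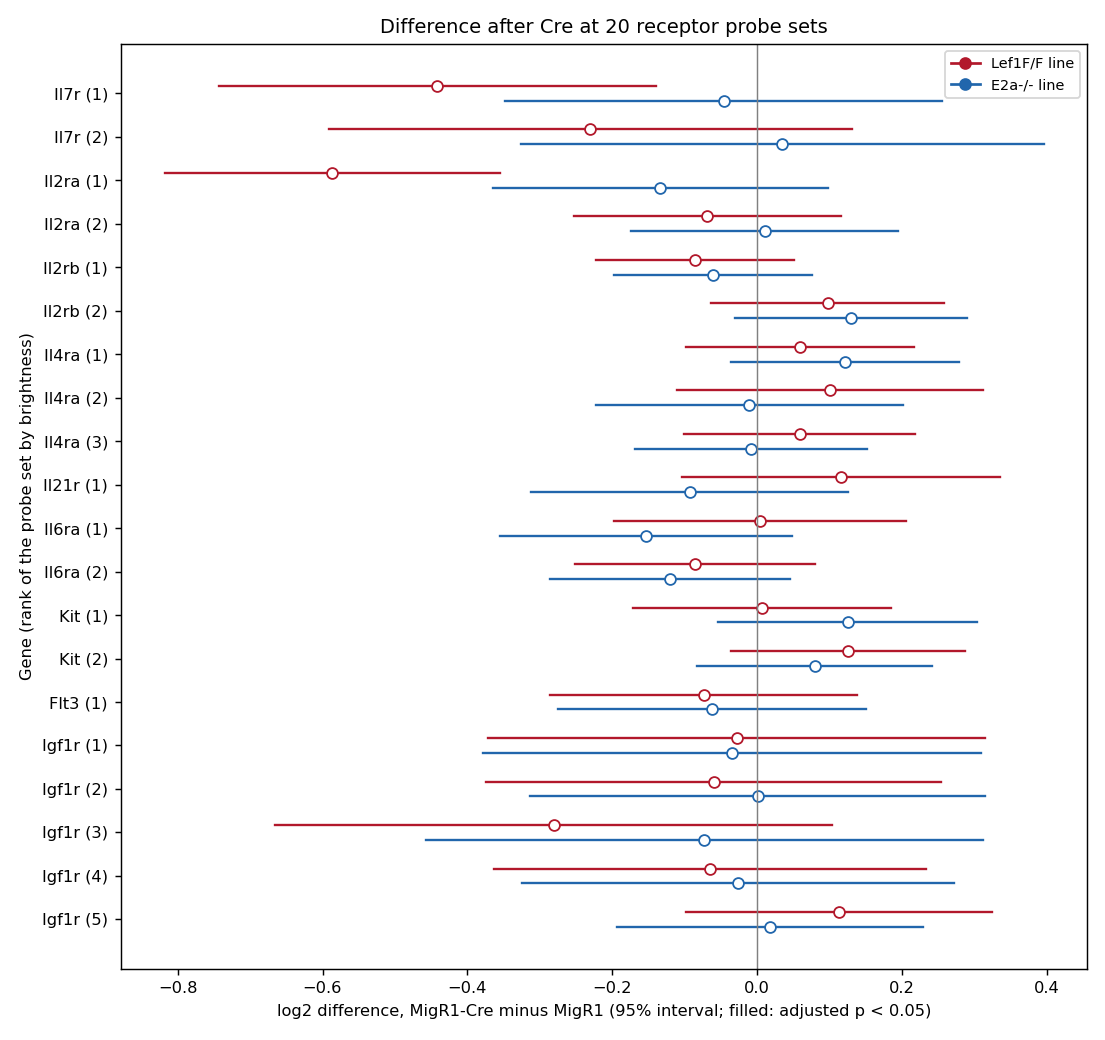
Difference in log2 intensity, MigR1-Cre minus MigR1, with its 95% interval at each of 20 receptor probe sets (rows, ranked by brightness within a gene), in the Lef1F/F line (red) and the E2a-/- line (blue). No point is filled, as none passed an adjusted p of 0.05, and the brighter Il2ra and Il7r probe sets lie farthest to the left in the Lef1F/F line, at -0.59 and -0.44.

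The signalling machinery around the receptors was described with 8 lists of ligands, further receptors, kinases, STATs, inhibitors, adaptors and target genes, of which 121 of 129 genes were measured. Between the lines in MigR1 arrays, 20 were higher and 8 lower in the Lef1F/F line, or 23.1%, beside 14.6% of all genes, and in MigR1-Cre arrays 19 were higher and 8 lower, or 22.3%, beside 16.1% of all genes. The counts by list that follow are to be read against 8.71% of all genes higher and 5.88% lower in MigR1 arrays. The median difference in MigR1 arrays was 0.03, against -0.0050 over all genes. After Cre, 1 of 121 (0.826%) passed in the Lef1F/F line, beside 0.286% of all genes, and 0 in the E2a-/- line, beside 0% of all genes.

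None of 12 measured ligands passed in any comparison. Il7 had means of 53.6 and 51.9 in the Lef1F/F MigR1-Cre and MigR1 arrays and of 55.5 and 53.5 in the E2a-/- MigR1-Cre and MigR1 arrays, all below the array median, and Kitl, the Kit ligand, had 95.8 to 99.7. Among 25 other cytokine receptors, 4 were higher and 3 lower in the Lef1F/F MigR1 arrays. Il15ra, the alpha chain for IL-15, had 326 and 298 in Lef1F/F MigR1 arrays against 134 and 117 in E2a-/- MigR1 arrays (1.32 ± 0.09). Crlf2, the partner of Il7r in the TSLP receptor, had 390 and 404 against 174 and 197 (1.10 ± 0.08), the opposite direction to Il7r. Il5ra and Il6st, the signalling chain for IL-6, were higher by 0.76 and 0.48, and Il10rb, Ifngr1 and Il27ra were lower (-0.71, -0.33 and -0.33). Il15ra was called at 2 of 2 probe sets, Il6st at 1 of 4 and Il10rb at 1 of 2, and the others have 1 probe set.

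Among 24 other growth factor receptors, 3 were higher and 3 lower in the Lef1F/F MigR1 arrays. Ddr1, a collagen receptor kinase, had 1151 and 1142 in Lef1F/F MigR1 arrays and 85.2 and 81.3 in E2a-/- MigR1 arrays (3.78 ± 0.14), and 3 of its 8 probe sets were called higher. The E2a-/- values lie below the array median, so the size of the difference depends on background. Igf2r, which binds IGF-2 and carries it to lysosomes without a kinase, had 272 and 248 against 573 and 592, a difference of -1.16 ± 0.07 and thus opposite to Igf1r. Insr, the insulin receptor, gave 0.35 ± 0.12 and did not pass. Pdgfrb and Ltk were higher by 0.72 and 0.63, and Fgfr1 and Erbb3 lower, by -0.43 and -0.42. Pdgfrb was called at 1 of 2 probe sets, Fgfr1 at 1 of 3 and Erbb3 at 1 of 2. Fgfr1 had means of 61.9 in Lef1F/F and 83.3 in E2a-/- MigR1 arrays, both below the array median.

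Erbb3, a receptor of neuregulins, was the 1 gene of these lists called after Cre. It had 243 and 249 in Lef1F/F MigR1-Cre arrays, against 161 and 169 in Lef1F/F MigR1 arrays, with no overlap, a difference of 0.58 ± 0.07 (limma adjusted p = 0.0293). The call was at 1 of its 2 probe sets. In the E2a-/- line Erbb3 had 248 and 230 after MigR1-Cre against 229 and 212 after MigR1, also higher without overlap (0.11 ± 0.07, not called). The difference of the Cre effects did not pass at Erbb3 (adjusted p = 0.695).

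Other genes of these lists did not pass after Cre in the Lef1F/F line, and those with the smallest p of each list are given as values. Socs2, an inhibitor that STAT5 induces, had 316 and 353 in Lef1F/F MigR1-Cre arrays, against 454 and 500 in Lef1F/F MigR1 arrays, with no overlap and a difference of -0.51 ± 0.08 that did not pass (adjusted p = 0.117), and it gave -0.04 in the E2a-/- line. Cblb, a ubiquitin ligase that restrains receptor signals, gave -0.41 ± 0.08 (adjusted p = 0.240). Among other cytokine receptors Il5ra gave -0.39 ± 0.12 and Il10ra -0.16 ± 0.07. Among other growth factor receptors Pdgfrb gave -0.40 ± 0.12, while Ephb4 and Igf2r were higher, by 0.43 ± 0.14 and 0.23 ± 0.07. The 2 ligands and 2 STATs with the smallest p, Il2 and Il6, and Stat6 and Stat5a, gave 0.17, -0.07, -0.12 and 0.05, and among targets Bcl2l1 and Bcl2 gave -0.15 and -0.12. Among Janus kinases Tyk2 and Jak1 gave 0.22 and -0.07, and among adaptors Grb2 and Pik3cd gave 0.15 and 0.29.

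Behind the receptors, Jak2 was the 1 of 4 Janus kinases that passed between the lines at the brightest probe set, with means of 612 in Lef1F/F MigR1 arrays and 409 in E2a-/- MigR1 arrays (0.58 ± 0.10, called at 1 of 2 probe sets). Jak1 and Jak3, the kinases bound to Il7r and to the common gamma chain, gave 0.10 ± 0.11 and -0.30 ± 0.12 at the brightest probe set and did not pass there, while 1 of 3 Jak1 probe sets was called higher. None of 6 measured STATs passed in any comparison, and Stat5a and Stat5b, which act downstream of IL-7, gave 0.14 ± 0.08 and 0.26 ± 0.14. Of 19 inhibitors, 3 were higher and 1 lower. Socs2 had 454 and 500 in Lef1F/F MigR1 arrays against 182 and 188 in E2a-/- MigR1 arrays (1.37 ± 0.08, called at 2 of 6 probe sets), Cblb and Ptpn2 were higher by 0.44 and 0.22, and Socs1 was lower, with 142 and 127 against 216 and 207 (-0.65 ± 0.07). Cblb was called at 1 of 3 probe sets, Ptpn2 at 1 of 4 and Socs1 at its only 1.

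Among 16 adaptor, PI3 kinase and IGF binding genes, 4 were higher and 0 lower in the Lef1F/F MigR1 arrays: Inpp5d, the phosphatase SHIP1, which removes a product of PI3 kinase (1.22 ± 0.14), Irs2, a docking protein of the insulin and IGF-1 receptors (0.60 ± 0.10), Sos1 (0.42) and Grb2 (0.34). Inpp5d and Grb2 were called at 1 of 2 probe sets, Sos1 at 1 of 5 and Irs2 at its only 1. Of 15 genes known as targets of cytokine signals, 5 were higher and 1 lower in MigR1 arrays, and 3 were higher and 2 lower in MigR1-Cre arrays. Bcl2, which protects lymphocytes from death and is induced by IL-7, had 259 and 255 in Lef1F/F MigR1 arrays against 51.5 and 51.4 in E2a-/- MigR1 arrays (2.32 ± 0.06), and 4 of its 5 probe sets were called higher. Ccnd2, the cell cycle protein cyclin D2, had 373 and 523 against 72.6 and 70.8 (2.62 ± 0.24) and was called at 7 of 7 probe sets. For both genes the E2a-/- values lie below the array median, and the sizes depend on background there. Nfil3 was higher by 1.17, Osm by 0.36 and Cd69 by 0.34, and Pim3 was lower (-0.31). The E2a-/- MigR1 mean of Nfil3, 65.0, also lay below the array median. Cd69 lay below it in both lines, with means of 52.3 in Lef1F/F and 41.5 in E2a-/- MigR1 arrays, where signal cannot be told from background. Myc had means of 2734 and 2737 in the Lef1F/F and E2a-/- MigR1 arrays.

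**Figure D4:**
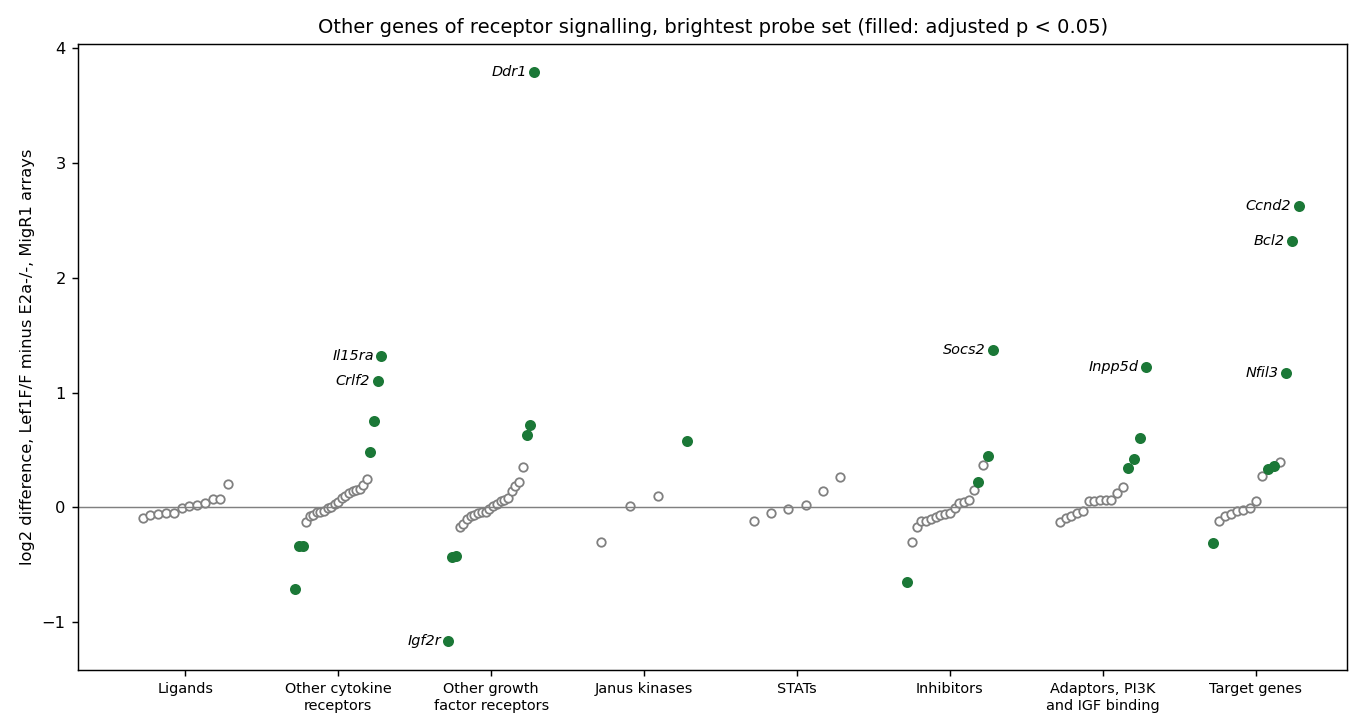
Difference in log2 intensity, Lef1F/F minus E2a-/- in MigR1 arrays, of 121 other genes of receptor signalling at their brightest probe set, by list; each point is a gene, ordered by value within its list, and filled points passed an adjusted p of 0.05. Named points have differences of 0.9 or more in size, with Ddr1 at 3.78, Ccnd2 at 2.62 and Bcl2 at 2.32, whose E2a-/- MigR1 means of 83.2, 71.7 and 51.4 lie below the array median, and Igf2r at -1.16.

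Il7r, Kit and Igf1r had group means that spanned 1 or more on the log2 scale, and for these the genes with the most similar profile over the 8 arrays were taken from 12569 genes by the root mean square distance of centred log2 values. For Il7r they were Trav9d-3 (0.13), Elovl6 (0.14) and Cpsf4l (0.19), and for Kit they were Cpsf4l (0.08), Evc (0.09) and Bambi (0.11). For Igf1r they were B4galnt1 (0.06), Csrp1 (0.08) and Plekho1 (0.09). With 8 arrays from 2 lines, such a profile is mostly the difference between the lines.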

How the data were processed

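Total RNA of GFP+ cells was hybridised to 8 Affymetrix Mouse Genome 430 2.0 arrays after labelling with a 3' in vitro transcription kit. The authors normalised the scans by RMA (version not given in the sources used here) and deposited 1 linear intensity per probe set and array. RMA makes the distributions of arrays alike, so the files hold no measure of total RNA per cell, and it compresses differences between dim probe sets. The number of arrays limits the precision. dChip, the tool of the study's own comparisons, was not used.

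Groups followed the sample titles. Arrays were numbered 1 and 2 in record order, and the labels pair none. The log2 intensities, without offset, of all 45037 probe sets were fitted as group means with limma 3.58.1 (R 4.3.3, lmFit and eBayes), which left 4 residual degrees of freedom. The 5 contrasts were MigR1-Cre against MigR1 in either line, the difference of these effects, and Lef1F/F against E2a-/- in MigR1 and in MigR1-Cre arrays. The line comparisons and the Cre comparisons share arrays. Tests were two-sided, and p was adjusted by Benjamini-Hochberg over the probe sets of a contrast (threshold 0.05). Levels of different probe sets were not set against each other. The fit was tested on simulated data.

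Genes were named from the platform annotation where a probe set had 1 symbol (34945 of 45037, with 932 having several and 9160 none), and promoters came from RefSeq. The brightest probe set over all arrays stands for a gene in counts. The receptors were taken whole. From each list and contrast the text names up to 4 genes past the threshold by size, or up to 2 with the smallest p where none passed; Insr, Kitl, Jak1, Jak3, Stat5a, Stat5b, Myc, Pdgfrb and others beyond this rule were chosen after their values were seen. The receptors and the lists were chosen with earlier results of these data known. Alternatives were leaving out each array, a block for pairs of Lef1F/F arrays, a threshold of 0.01, a null of 1.5-fold, an offset of 50, array weights, quantile normalisation again, leaving out suffixes _s_at and _x_at, fits of the 4 arrays of a contrast alone, leaving out probe sets under the 40th percentile, trend and robust moderation, and the mean over a gene's probe sets.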

Additional observations from a re-analysis of the deposited data

How the results depend on the processing

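The labels pair no arrays, and the pairs of Lef1F/F arrays used as a block come from the data. With that block, 2 receptor probe sets and 2 receptor genes were called after Cre in the Lef1F/F line, against 0 and 0 without it. The block also raised the calls over all 45037 probe sets in this comparison, from 75 to 345. Tested against a fold of 1.5, 3 probe sets and 2 genes were called between the lines in MigR1 arrays, Igf1r and Il2ra being lost, and 3 probe sets in MigR1-Cre arrays. At a threshold of 0.01, Il2ra (0.0101) was lost in MigR1 arrays. Il7r and Kit kept their direction and call between the lines under every alternative with a test, and Igf1r under all but the fold of 1.5; leaving out 1 array gave -1.41 to -1.60 for Il7r, -1.69 to -1.80 for Kit and 0.78 to 1.28 for Igf1r in MigR1 arrays. The mean over a gene's probe sets, which has no test, gave -0.998 for Kit, 0.67 for Igf1r and 0.29 for Il2ra in MigR1 arrays, -1.03 for Kit and 0.63 for Igf1r in MigR1-Cre arrays, and -0.33 for Il2ra after Cre in the Lef1F/F line. Of 831 values of single receptors under an alternative, 0 called values turned their direction, 5 lost a call, 3 gained one and 41 others shifted by more than the spread between replicates, uncalled values of Igf1r, Kit and Il6ra after Cre that changed sign among them. Over all probe sets, 75 were called after Cre in the Lef1F/F line, and 345 with the block, 46 with array weights, 27 at 0.01, 4 against the fold of 1.5, 0 with only the 4 arrays compared and 20 to 33 without 1 array. Between the lines 4829 were called in MigR1 arrays, 9595 with the block, 2583 at 0.01, 658 against the fold of 1.5 and 2267 to 5396 without 1 array. In MigR1-Cre arrays the counts were 5403, 10554, 2841, 604 and 2804 to 6088. For the difference of the Cre effects they were 9, 86, 0, 0 and 0 to 7, with 5 under the filter on dim probe sets and 5 without the suffixes, and for the E2a-/- line 1 in place of 0 with the 4 arrays compared and with the block.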
